A study of Homo sapiens with 8 samples.

Results

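Mitotic kinases, cyclins, spindle proteins and kinetochore proteins were described in Jurkat cells, an established human T-ALL cell line, with and without CBAP. The members were 40 genes listed by symbol for their role in mitosis. The rule used no measured value, but the list was drawn up with earlier results of these data known. Of these, 38 had a row of their own among the 13453 rows of the expression table and all 38 passed the filter on low values (a mean of at least 1 FPKM, sequenced fragments scaled to exon length and to the number mapped), as did 11427 rows in all. FOXM1 was not analysed here, and BUB1B was listed only in a joint entry with its neighbour PAK6, which is given below as a joint value and was not counted.

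CBAP, encoded by TMEM102, is known as a binding partner of the beta chain shared by several cytokine receptors. RNA was sequenced in 8 libraries, 2 of each of 4 conditions, which form 2 sets. The shRNA set held Jurkat cells with a control shRNA (sh-Ctrl) and cells in which CBAP was knocked down by shRNA (CBAP knockdown), both as stably transduced, drug-selected cells. The CRISPR set held CBAP-reconstituted and CBAP knockout cells. By the methods of the study both descend from CBAP knockout cells grown from single cells, the first given a CBAP-GFP fusion and the second GFP, so both carry the knockout and an added vector. The labels do not say whether the libraries of a condition came from separate cultures, so the p-values measure the spread between these libraries, which may be technical.

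Of 12 T-cell markers 11 had a row, and 10 or 11 of them reached an FPKM of at least 1 in each library. Of 10 markers of other lineages 2 had a row, COL1A1, a fibroblast collagen, at 1.07 to 2.15 FPKM and CD79A, a chain of the B-cell receptor, at 9.602 to 22.5 FPKM in 6 libraries and 0.732 and 1.09 in the reconstituted ones. CD5, a surface glycoprotein of T cells, stood at 0.180 and 0.231 FPKM in the reconstituted libraries against 27.1 and 27.4 in the knockout libraries. CD28 (2.93 and 2.59 against 35.5 and 37.5), CD2 (10.97 and 10.3 against 83.7 and 75.9) and CD7 (39.0 and 38.1 against 134 and 124) were also lower in the reconstituted libraries. For CD5, CD28, CD2, CD7 and CD79A, and by less for CD247, the reconstituted libraries lay under all 6 others. For CD3D, CD3E, CD3G, LCK, ZAP70 and PTPRC they did not. PTPRC stood at 113 and 116 FPKM there, between sh-Ctrl (58.8 and 75.5) and knockout libraries (161 and 167). The summed T-cell markers came to 1593 and 1599 FPKM in the reconstituted libraries and to 1730 to 2580 FPKM in the others. The highest sum was in knockout replicate 2, where CD3E stood at 1022 FPKM beside 530 in replicate 1. The control cells of the CRISPR set thus differed in several lineage markers from the knockout cells and from sh-Ctrl cells, and the part of this in the results below was not tested. TMEM102 fell from 4.07 and 4.74 FPKM to 2.69 and 2.89 in the shRNA set. All 4 CRISPR-set libraries listed it at 0, also the reconstituted ones, and the targeted gene therefore gave no check of their labels. The summed FPKM of all genes lay between 431057 and 434742 in the reconstituted libraries and between 362082 and 392806 in the others.

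Entry into mitosis is driven by CDK1 bound to cyclin B, switched on by CDC25 phosphatases and helped by the Aurora and Polo-like kinases. Kinetochores built on CENPA chromatin bind spindle microtubules, and the checkpoint proteins hold the anaphase-promoting complex back until every chromosome is attached. CDC20 then activates the complex, UBE2C supplies it with ubiquitin, and cyclin B and securin (PTTG1) are destroyed. Most of these genes are transcribed late in the cell cycle, from promoters with CCAAT boxes, bound by NF-Y, and a cell cycle genes homology region (CHR), bound by the MuvB complexes. In bulk RNA, fewer cells in mitosis and less RNA per mitotic cell cannot be told apart.

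The promoter sequences of the RefSeq table (GRCh38.p14) show this layout in the members themselves. A promoter of 250 bases before and 50 after the annotated start site was found for 33 of the 40 listed genes. The motif TTTGAA (CHR, either strand) was in 23 of the 33 promoters (69.7%) and in 15.4% of all 27305 promoters of the table. The motif CCAAT (either strand) was in 24 (72.7%) against 35.7% of all, and 15 (45.5%) held it at 2 or more places against 11.3%. The rarer form TTCGAA was in 2 of the 33 (6.06%), BUB1 and NDC80, against 1.45%. One of the CHR forms together with CCAAT was in 19 (57.6%) against 6.58%. A match to one motif is never a match to another, and a match is a run of letters, not a shown binding site. The listed genes with no promoter in the table were AURKA, BIRC5, BUB3, FOXM1, TPX2, TTK and UBE2C. The 30-base stretches that follow hold a match to a CHR form, with every such match inside the stretch in capitals, of members whose RNA moved most or in opposite directions, written 5′ to 3′ on the strand of the gene.
CDC20: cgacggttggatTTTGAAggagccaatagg
PLK1: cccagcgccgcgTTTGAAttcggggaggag
KIF4A: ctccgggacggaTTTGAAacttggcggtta
NDC80: gagaatTTCAAATTCGAAcggctttggcgg
TOP2A: cgagtggtgcctTTTGAAgcctctctagtc
MKI67: tcttcgttttcgTTTGAAttgggcgggcgc
ANLN: ctgaaaTTCAAATTTGAAcggctgcagagg
The stretches lie at chr1:43358904-43358933 (CDC20), chr16:23678848-23678877 (PLK1), chrX:70290058-70290087 (KIF4A), chr18:2571548-2571577 (NDC80), chr17:40418073-40418102 (TOP2A), chr10:128126435-128126464 (MKI67) and chr7:36389830-36389859 (ANLN), with TOP2A and MKI67 on the minus strand. In NDC80 and ANLN 2 matches adjoin, the first being TTTGAA on the opposite strand, and CDC20, TOP2A and MKI67 hold a further match outside the stretch shown. Members that were lower in CBAP knockout cells (CDC20, PLK1, KIF4A) and members that were higher there (TOP2A, MKI67, ANLN) both held TTTGAA. No match to either CHR form stood in the windows of CCNB1, AURKB and CDC25B, which says only that these letters are not there.

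**Figure D1:**
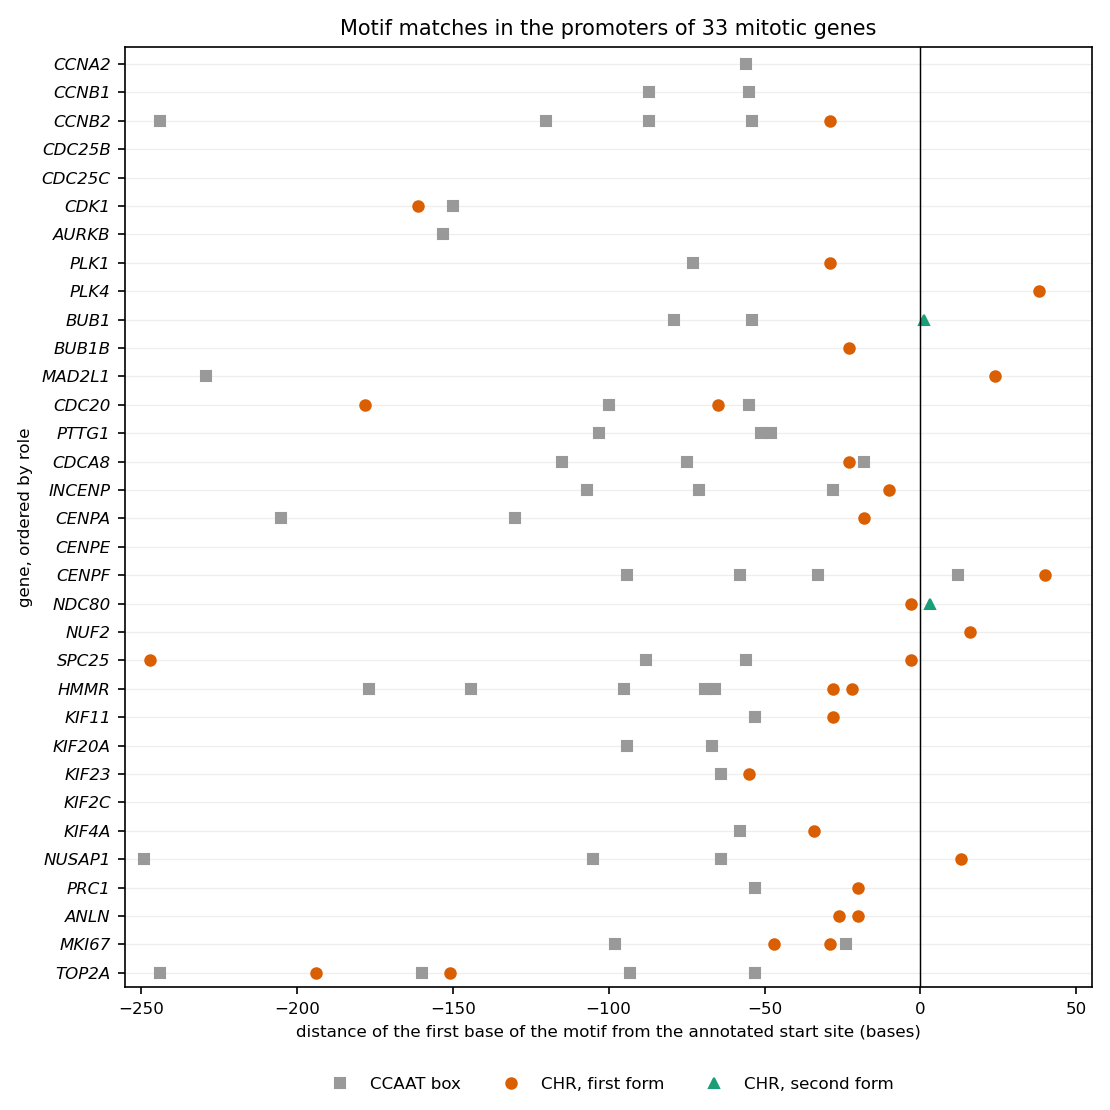
Positions of the CCAAT box (squares), the CHR form found in 23 promoters (circles) and the rarer CHR form found in 2 (triangles), in bases from the annotated start site, for the 33 genes with a promoter in the RefSeq table. Of 29 places with the commoner CHR form, 24 lie between 70 bases before and 40 bases after the start site, and 51 of the 52 CCAAT places lie before it.

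All 38 genes were expressed in these proliferating cells, with means over the 8 libraries from 8.41 FPKM for CDC25C, a phosphatase that activates CDK1, to 160 FPKM for UBE2C. The 38 genes summed to 2496 and 2176 FPKM in sh-Ctrl cells and 1888 and 2115 FPKM in CBAP knockdown cells. They summed to 2860 and 2892 FPKM in reconstituted cells and 2425 and 2435 FPKM in knockout cells. The sum was thus lower in both deficient conditions, with no overlap in either set, but within the shRNA set the lower sh-Ctrl library and the higher knockdown library lay close together. As a percentage of the FPKM of all genes, the 38 genes took 0.664% and 0.665% in reconstituted and 0.632% and 0.620% in knockout cells, and 0.647% and 0.558% in sh-Ctrl and 0.521% and 0.543% in knockdown cells.

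The replicate spread of these genes differed between the sets. The median gap between the libraries of a condition over the members, on the scale log2(FPKM + 1), was 0.19 for sh-Ctrl and 0.20 for CBAP knockdown cells, but 0.02 for reconstituted and 0.04 for knockout cells. In the shRNA set the gap ran through the whole group of genes and in opposite directions, with a median of 0.19 in favour of replicate 1 in sh-Ctrl and of replicate 2 in knockdown cells. That gap was larger than the median change of the members in this set.

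The first question was whether mitotic genes differed between CBAP knockdown and sh-Ctrl cells. UBE2C, the ubiquitin-conjugating enzyme of the anaphase-promoting complex, had a mean FPKM 53.1% lower in knockdown cells, NDC80, a kinetochore subunit that grips microtubules, 48.8% lower, and CCNB1 (cyclin B1) 16.4% lower. With limma on log2(FPKM + 1) and Benjamini-Hochberg adjustment over all 11427 genes, these 3 of 38 members (7.89%) fell and 0 rose, beside 8.70% of all tested genes that fell and 3.62% that rose. The share of members that fell was thus near that of all genes. At an unadjusted p under 0.05 there were 13 members (34.2%), near the 30.3% of all genes. The count of 3 was 0 with only the shRNA set in the fit, 2 with median scaling or quantile normalization and 6 without genes listed at 0 in any library. The main fit shares its estimate of spread over all 4 conditions, and the gaps between libraries were smaller in the CRISPR set. The members' median change was -0.14 on the log2(FPKM + 1) scale, against -0.06 for all tested genes. In 17 members (44.7%) both knockdown libraries lay under both sh-Ctrl libraries, as they did in 33.2% of all genes, and in 1 member, ANLN, both lay above, as in 17.4%.

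In the CRISPR set the picture was larger and mixed. Of the 38 members, 17 (44.7%) fell in CBAP knockout cells, beside 25.9% of all tested genes, and 3 (7.89%) rose, beside 23.9%. Among the 6810 tested genes whose mean FPKM lay in the range of the members, 30.2% fell and 21.2% rose. CDC20, CCNB1, PLK1, AURKB and CDC25B fell most, and TOP2A, MKI67 and ANLN were the 3 that rose. The members' median change was -0.33 on the log2(FPKM + 1) scale, with 0.00 for all genes and -0.06 for those in the range of the members. Both knockout libraries lay under both reconstituted libraries in 28 members (73.7%), beside 42.7% of all genes, and above them in 8 (21.1%), beside 43.0%. Each library was also scaled to the same sum of FPKM, a setting chosen after the sums were seen. The median change of all genes was then 0.13 in this comparison, and 9 members fell and 5 rose, NUSAP1 and PLK4 being the added ones. Of all 11427 genes, 2240 fell and 4089 rose there. With quantile normalization 10 members fell and 5 rose, and of all genes 2861 fell and 2935 rose. In both settings the share of members that fell was nearer that of all genes than in the main fit. The share that rose stayed below that of all genes. With only the CRISPR set in the fit, 7 members rose and 25 fell, beside 3848 and 3901 of all 11427 genes. CENPF, NUF2, NUSAP1 and PLK4 were then called higher as well. BUB1, CCNA2, CDC25C, KIF23, PRC1, PTTG1, TPX2 and TTK were then called lower as well. Calls given below are those of the main fit unless a setting is named. The count of 20 was 12 without either reconstituted library and 13 without either knockout library. Of the 20 members, 12 remained called in every alternative, ANLN, MKI67 and TOP2A higher and AURKA, AURKB, BIRC5, CCNB1, CDC20, CDC25B, KIF20A, KIF4A and PLK1 lower. The other 8, BUB3, CCNB2, CDCA8, CENPA, INCENP, KIF2C, MAD2L1 and NDC80, were each lost with quantile normalization, with equal sums of FPKM and in some of the fits that left out a library.

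**Figure D2:**
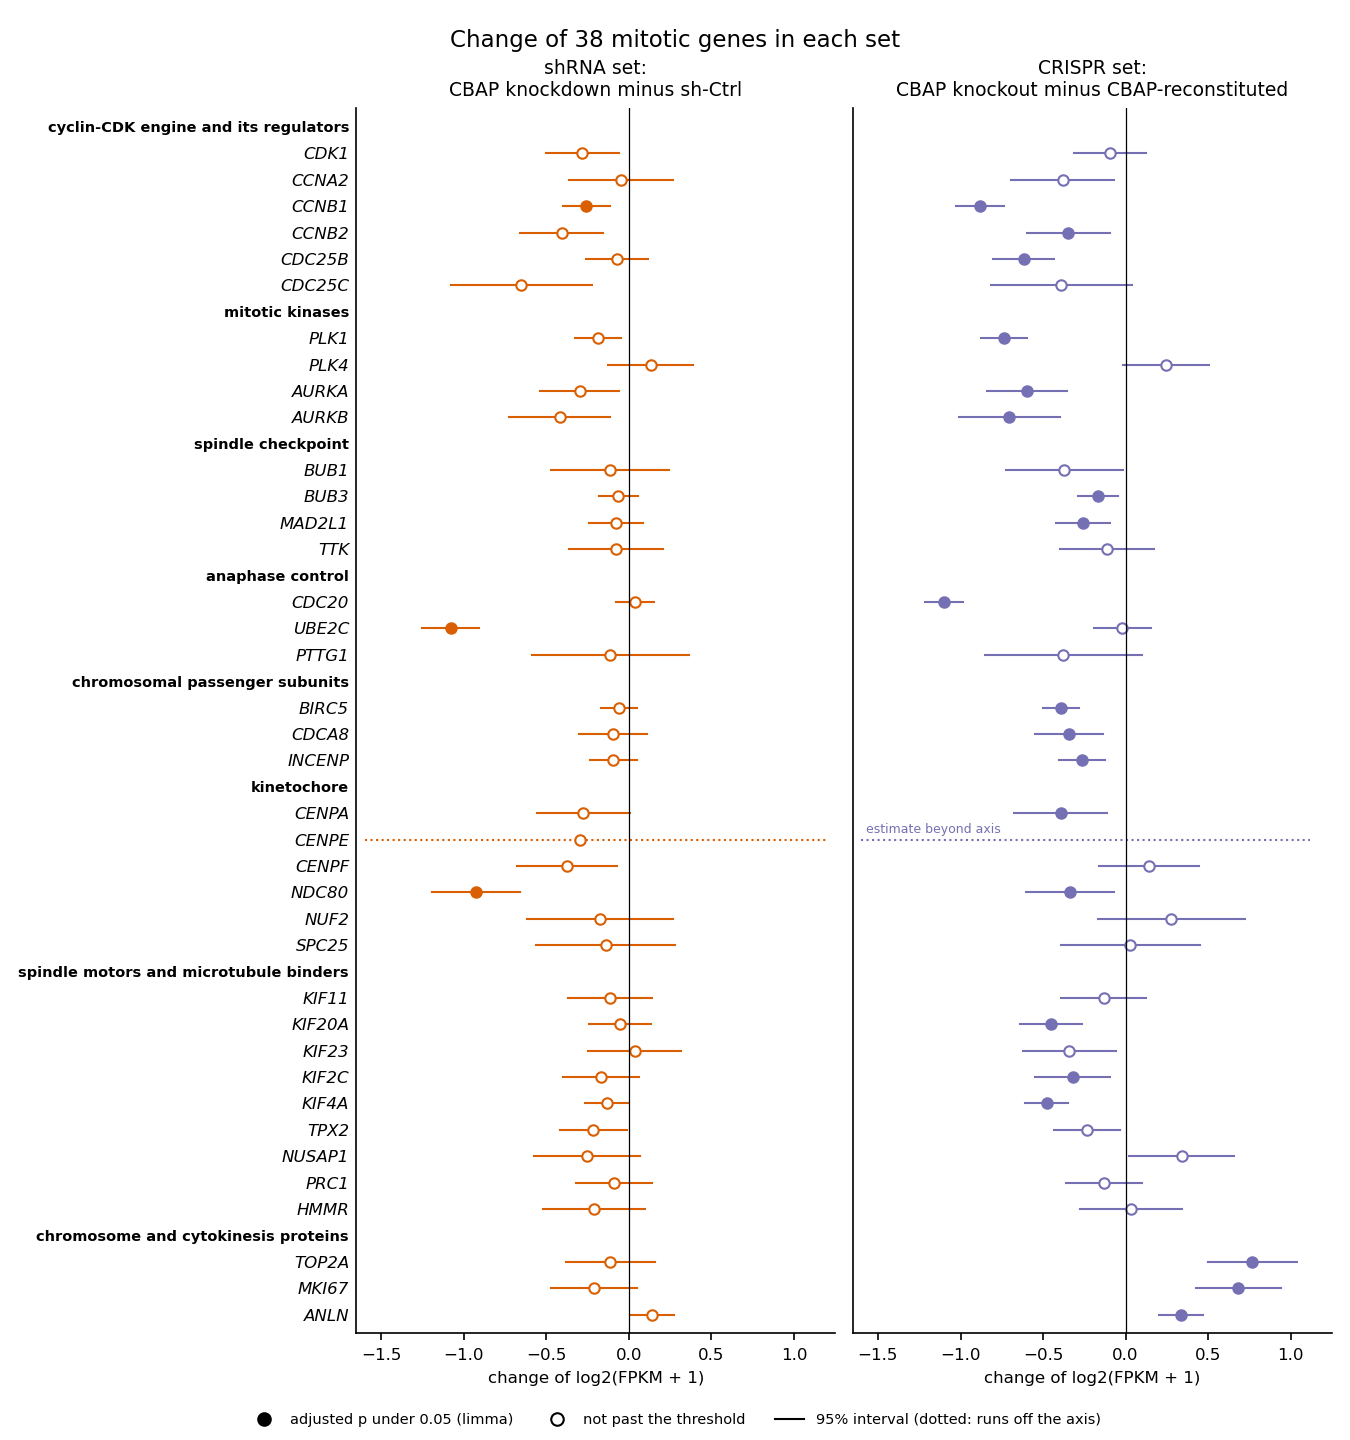
Change on the log2(FPKM + 1) scale of each of the 38 genes, grouped by role, in the shRNA set (left) and the CRISPR set (right). Bars are 95% intervals of the limma fit over 2 libraries per condition, with a spread shared over all 4 conditions. Filled points passed an adjusted p under 0.05. On the left 3 points are filled, all below 0, and on the right 20, with TOP2A, MKI67 and ANLN above 0; CENPE has an estimate of -2.04 on the right, beyond the axis, because of 1 library listed at 0.

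Among the cyclin-CDK genes, CCNB1 (GRCh37 chr5:68462962-68474072) fell in both sets, as NDC80 did. Its FPKM was 139 and 129 in sh-Ctrl, 108 and 115 in knockdown, 171 and 169 in reconstituted and 91.0 and 92.8 in knockout cells. The conditions did not overlap in either set, and the knockout libraries were the lowest of all. Its mean was 16.4% lower in knockdown cells (change -0.26, SE 0.059, adjusted p = 0.046) and 45.9% lower in knockout cells (change -0.88, SE 0.059, adjusted p = 0.00022). The call in the knockdown comparison was lost in most alternatives, with adjusted p-values from 0.033 to 0.27, the last with only the 4 libraries of the shRNA set in the fit. CDK1 itself, the kinase that cyclin B activates, had 129.5 and 115 FPKM in sh-Ctrl, 93.4 and 107 in knockdown, 145 and 149.8 in reconstituted and 136 and 139.9 in knockout cells. The knockdown libraries lay under sh-Ctrl and the knockout libraries under reconstituted, but neither change passed the threshold (-0.28, adjusted p = 0.096, and -0.09, adjusted p = 0.42, the latter above 0 with quantile normalization or equal sums of FPKM). CDC25B, a phosphatase that activates CDK1, had 53.6 and 55.3 FPKM in sh-Ctrl and 55.8 and 48.1 in knockdown cells, which overlapped. It had 66.3 and 65.1 in reconstituted and 42.6 and 42.3 in knockout cells, a fall of 35.4% in the mean (change -0.62, SE 0.075, adjusted p = 0.0016). CCNB2, a further B-type cyclin, fell in knockout cells (change -0.35, adjusted p = 0.035) and stood at a similar -0.41 in knockdown cells, where it did not pass (adjusted p = 0.058). CCNA2, the cyclin of S and G2 phase, lay just over the threshold in knockout cells (change -0.38, adjusted p = 0.0502), and CDC25C had changes of -0.65 and -0.39 that did not pass in the shRNA set (adjusted p = 0.065) or the CRISPR set (adjusted p = 0.11).

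Of the 4 members grouped as mitotic kinases (AURKA, AURKB, PLK1 and PLK4), 3 fell in knockout cells (75.0%), beside 25.9% of all tested genes. In knockdown cells 0 passed, and limma gave 3 an unadjusted p under 0.05 (75.0%, beside 30.3% of all genes). CDK1 and TTK, kinases grouped under other roles, passed in neither set. PLK1 (GRCh37 chr16:23688977-23701688), the Polo-like kinase that acts from mitotic entry to cytokinesis, had 113 and 112 FPKM in sh-Ctrl and 93.7 and 103 in knockdown cells. It had 149 and 151 in reconstituted and 90.3 and 89.5 in knockout cells. The conditions did not overlap in either set, and the mean was 40.2% lower in knockout cells (change -0.73, SE 0.056, adjusted p = 0.00034). In knockdown cells its change was -0.19 (adjusted p = 0.089). AURKA, the Aurora kinase of the centrosome and spindle pole, had 58.3 and 52.2 FPKM in sh-Ctrl, 40.9 and 48.8 in knockdown, 64.8 and 62.5 in reconstituted and 41.5 and 42.0 in knockout cells. AURKB, the Aurora kinase of the chromosomal passenger complex, had 82.2 and 66.2 FPKM in sh-Ctrl, 50.7 and 59.6 in knockdown, 108 and 110.3 in reconstituted and 69.0 and 64.2 in knockout cells. For both kinases the deficient libraries lay under the expressing ones within each set. AURKA fell by 0.60 (SE 0.097, adjusted p = 0.0045) and AURKB fell by 0.70 (SE 0.12, adjusted p = 0.0059) on the log2 scale in knockout cells. In knockdown cells their changes of -0.30 and -0.42 did not pass (adjusted p = 0.11 and 0.085). PLK4, which starts centriole duplication, had changes of 0.13 and 0.25 that did not pass (adjusted p = 0.45 and 0.10).

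The genes that control anaphase changed in different places in the 2 sets. CDC20 (GRCh37 chr1:43824652-43828874) had 97.9 and 94.6 FPKM in sh-Ctrl and 101 and 96.4 in knockdown cells, which overlapped. It had 127 and 126 in reconstituted and 57.9 and 59.1 in knockout cells, a mean lower by 53.7% (change -1.10, SE 0.046, adjusted p = 4.6e-05). UBE2C (GRCh37 chr20:44441215-44445596) showed the reverse layout. It had 192 and 168 FPKM in sh-Ctrl and 84.9 and 84.3 in knockdown cells, a mean lower by 53.1% (change -1.08, SE 0.069, adjusted p = 0.0014). In the CRISPR set it had 188 and 191 in reconstituted and 187 and 187 in knockout cells (change -0.02, 95% interval -0.19 to 0.15, adjusted p = 0.85), a value that lay above 0 with quantile normalization or equal sums of FPKM. This interval uses a spread shared over all 4 conditions, with the wider gap of the sh-Ctrl libraries in it. Over the alternatives the adjusted p of the knockdown change ran from 0.00068 to 0.061, and the call was lost only where the fit held the 4 libraries of the shRNA set alone. PTTG1, securin, had wide gaps between its sh-Ctrl libraries (149 and 106 FPKM) and its knockdown libraries (101 and 134 FPKM) and passed in neither set.

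The 3 further subunits of the chromosomal passenger complex, which corrects faulty attachments with AURKB, passed as lower in knockout cells. Of all tested genes 25.9% fell there. The call of BIRC5 alone held in every alternative. BIRC5 (survivin) had 79.3 and 77.6 FPKM in sh-Ctrl, 73.5 and 77.0 in knockdown, 94.9 and 94.6 in reconstituted and 71.9 and 72.2 in knockout cells. The fall in knockout cells brought its mean to 0.760 of that in reconstituted cells (change -0.39, SE 0.045, adjusted p = 0.0013), and the change in knockdown cells was -0.06 (adjusted p = 0.42). CDCA8 (borealin) and the scaffold INCENP fell by 0.34 and 0.26 on the log2 scale in knockout cells (adjusted p = 0.018 and 0.012), and their changes in knockdown cells were -0.10 and -0.09. Their knockout calls were lost with quantile normalization and equal sums of FPKM (adjusted p up to 0.12 and 0.19) and held in 4 of the 8 fits that left out a library. Of the spindle checkpoint genes, BUB3 fell by 0.17 (adjusted p = 0.032) and MAD2L1 by 0.26 (adjusted p = 0.022) in knockout cells, while BUB1 and TTK (the kinase MPS1) did not pass. The calls of BUB3 and MAD2L1 were lost with quantile normalization, where their changes were 0.062, above 0, and -0.050, and with equal sums of FPKM. None of the 4 passed in knockdown cells, where limma gave 0 members of this group an unadjusted p under 0.05. The joint entry of BUB1B, the checkpoint protein BUBR1, and PAK6 had 51.3 and 39.7 FPKM in sh-Ctrl, 31.5 and 41.5 in knockdown, 63.0 and 64.2 in reconstituted and 54.0 and 51.3 in knockout cells, and passed in neither set. BUB1B (GRCh37 chr15:40453224-40513324) overlaps PAK6 on the same strand, and its share of the joint value cannot be told apart.

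In knockdown cells all 6 kinetochore genes had changes below 0, as 34 of the 38 members did, beside 6844 of all 11427 genes. Their median was -0.29, and 1 passed (16.7%, beside 8.70% of all genes). In knockout cells 3 had changes above 0 and 3 below, and 2 passed as lower (33.3%, beside 25.9% of all genes). NDC80 (GRCh37 chr18:2571556-2616634) had 31.5 and 27.6 FPKM in sh-Ctrl and 13.6 and 16.7 in knockdown cells, a mean lower by 48.8% (change -0.92, SE 0.11, adjusted p = 0.0095). It had 46.5 and 45.6 in reconstituted and 36.3 and 36.3 in knockout cells, a fall of 21.2% (change -0.34, SE 0.11, adjusted p = 0.046) that was lost in several alternatives (adjusted p from 0.0016 to 0.17). Its call in the shRNA set was lost only with those 4 libraries alone in the fit (adjusted p from 0.0031 to 0.14 over the alternatives). Its partners in the same complex, NUF2 and SPC25, had changes of -0.17 and -0.14 in knockdown and 0.28 and 0.03 in knockout cells, and none passed in the main fit. NUF2 was called higher in knockout cells with only the CRISPR set in the fit. CENPA, the histone H3 variant that marks centromeres, fell by 0.39 in knockout cells (adjusted p = 0.032). CENPF, a large kinetochore protein of late G2, had changes of -0.37 and 0.14 that did not pass. CENPE, a kinetochore motor (GRCh37 chr4:104026506-104119602), had 18.05 and 14.6 FPKM in sh-Ctrl, 11.8 and 14.3 in knockdown, 17.0 and 17.3 in reconstituted and 18.5 and 0 in knockout cells. It was the only member listed at 0 in any library, and the 0 in knockout replicate 2 beside 18.5 in replicate 1 was read as a listed 0 and not as absence. Its change in knockout cells was -2.04 with that library and 0.10 without it.

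Of the 9 spindle motors and microtubule binders, 3 fell in knockout cells (33.3%), near the 25.9% of all tested genes. In knockdown cells 0 passed, and limma gave 2 an unadjusted p under 0.05 (22.2%, beside 30.3% of all genes). KIF4A, a chromosome-bound motor of the spindle midzone, fell by 0.48, KIF20A, a motor of cytokinesis, by 0.45 and KIF2C, a microtubule depolymerase, by 0.32 on the log2 scale (adjusted p = 0.0011, 0.0049 and 0.032). KIF23, a motor of the central spindle, and TPX2, which activates AURKA on the spindle, had changes of -0.34 and -0.23 (adjusted p = 0.052 and 0.057). NUSAP1, which bundles microtubules near chromosomes, had 117 and 120.5 FPKM in reconstituted and 149.9 and 151 in knockout cells, with a change of 0.34 that did not pass (adjusted p = 0.075). KIF11, PRC1 and HMMR had changes between -0.13 and 0.03 in knockout cells.

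The 3 members called higher in knockout cells in the main fit were TOP2A, MKI67 and ANLN. With only the CRISPR set in the fit, CENPF, NUF2, NUSAP1 and PLK4 were called higher too. TOP2A (GRCh37 chr17:38544777-38574148), the topoisomerase that untangles sister chromatids, had 78.9 and 79.0 FPKM in reconstituted and 133 and 137 in knockout cells, a mean 1.71-fold as high (change 0.77, SE 0.11, adjusted p = 0.0027). MKI67 (GRCh37 chr10:129894923-129924687), the Ki-67 protein that coats mitotic chromosomes and is used as a proliferation marker, had 34.0 and 33.8 in reconstituted and 56.1 and 54.0 in knockout cells, 1.62-fold as high (change 0.68, SE 0.10, adjusted p = 0.0036). ANLN, the actin-binding anillin of the cleavage furrow, had 20.6 and 21.3 in reconstituted and 27.1 and 26.3 in knockout cells (change 0.34, SE 0.054, adjusted p = 0.0042). In the shRNA set TOP2A had 78.7 and 64.7 FPKM in sh-Ctrl and 61.5 and 70.7 in knockdown cells, and MKI67 had 29.7 and 26.2 in sh-Ctrl and 21.8 and 26.5 in knockdown cells. Both overlapped there, and neither change passed (-0.11, adjusted p = 0.53, and -0.21, adjusted p = 0.25). ANLN had 21.5 and 20.3 in sh-Ctrl and 22.9 and 23.4 in knockdown cells (change 0.14, adjusted p = 0.14).

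**Figure D3:**
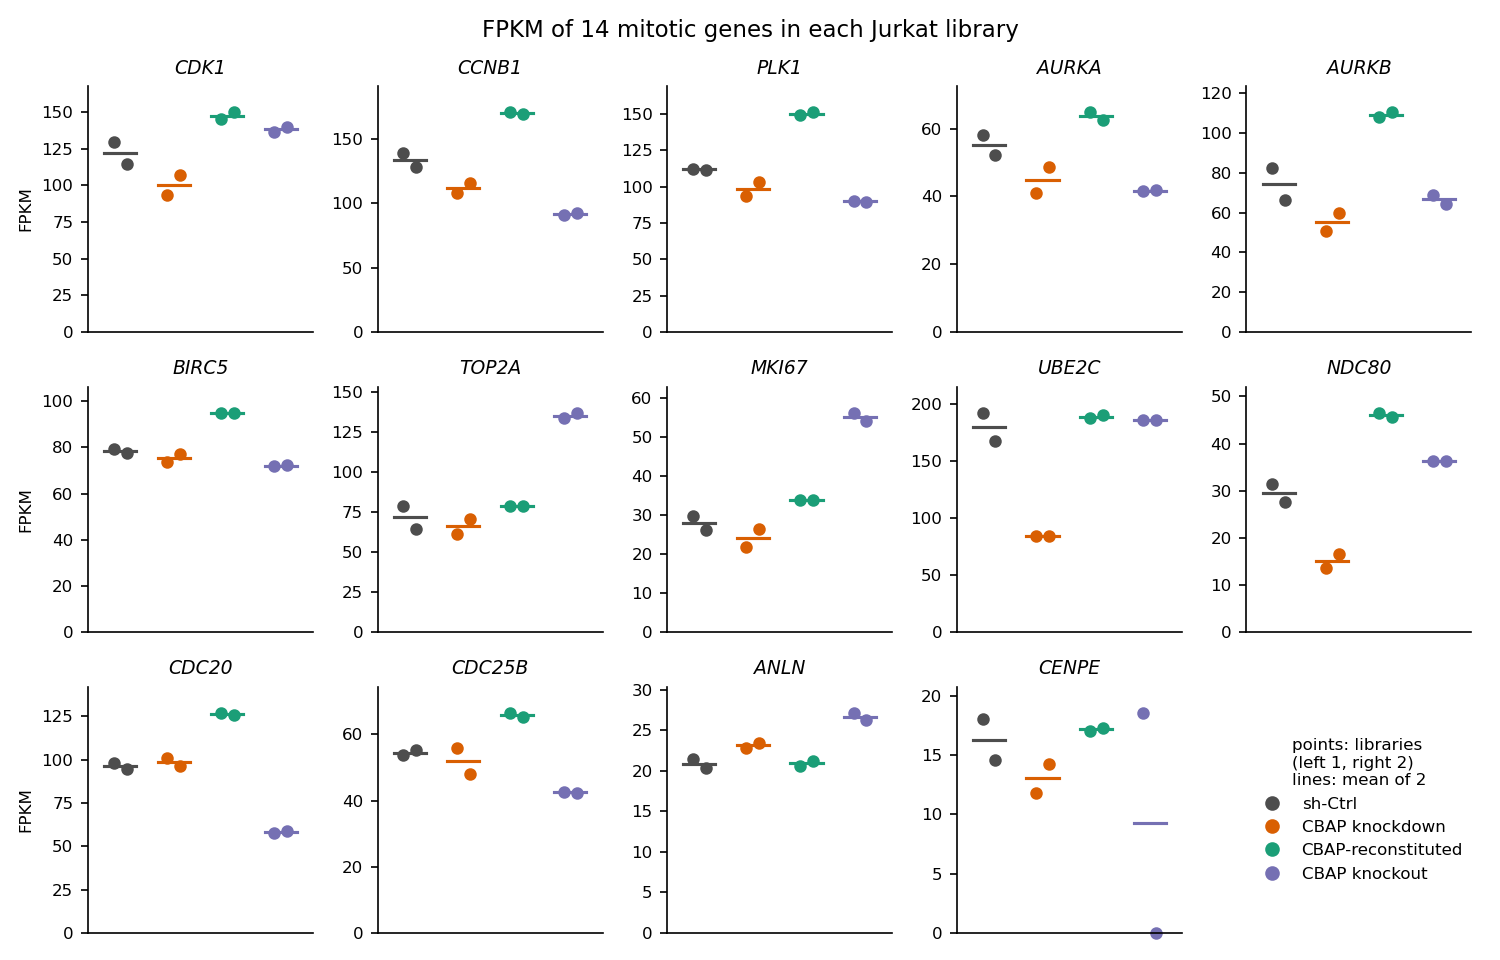
FPKM of the 14 members given with full values, with 1 point per library and a line at the mean of each condition; the axes start at 0. CDC20 is lowest in knockout cells (57.9 and 59.1) and UBE2C in knockdown cells (84.9 and 84.3), while TOP2A and MKI67 are highest in knockout cells, and CENPE has 1 knockout library at 0.

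Whether a gene changed differently in the 2 sets was tested directly, as the change in knockdown minus the change in knockout cells. This difference passed the threshold in 11 of the 38 members, above 0 in 7 (18.4%, beside 15.5% of all tested genes) and below 0 in 4 (10.5%, beside 18.3%). The 5 of greatest size were CDC20 (1.13, SE 0.066, adjusted p = 0.00026), UBE2C (-1.06, SE 0.098, adjusted p = 0.0013), MKI67 (-0.89, SE 0.15, adjusted p = 0.0083), TOP2A (-0.88, SE 0.15, adjusted p = 0.0097) and CCNB1 (0.62, SE 0.083, adjusted p = 0.0042). PLK1 and CDC25B (0.55 each), KIF20A (0.40), KIF4A (0.34) and BIRC5 (0.33) fell further in knockout than in knockdown cells, and NDC80 (-0.59) fell further in knockdown cells. The differences of CDC20, UBE2C, MKI67, TOP2A, CCNB1 and PLK1 passed with each library left out in turn, and those of CDC25B, BIRC5, KIF4A, KIF20A and NDC80 passed in 6, 4, 4, 3 and 3 of the 8 such fits. The Aurora kinases did not pass, with differences of 0.30 for AURKA (adjusted p = 0.15) and 0.28 for AURKB (adjusted p = 0.26), though that of AURKA passed with median scaling (0.45, adjusted p = 0.018) and without knockdown replicate 1 (0.42, adjusted p = 0.029). The split of 7 and 4 depended on the scaling, being 13 and 4 with median scaling, 7 and 6 with quantile normalization and 4 and 7 with equal sums of FPKM. Over all 11427 genes the split was 1774 and 2087 in the main fit. It was 2820 and 1684, 2004 and 1947, and 1503 and 3056 in those settings. Over the 38 members, which are not independent, Pearson's r between the changes in the 2 sets was 0.070 (Spearman's rho 0.054), and 0.039 (rho 0.000) without CENPE, against 0.105 (rho 0.178) over all tested genes. A negative change in both sets was found in 27 members (71.1%), beside 33.3% of all genes. The sets share no library.

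**Figure D4:**
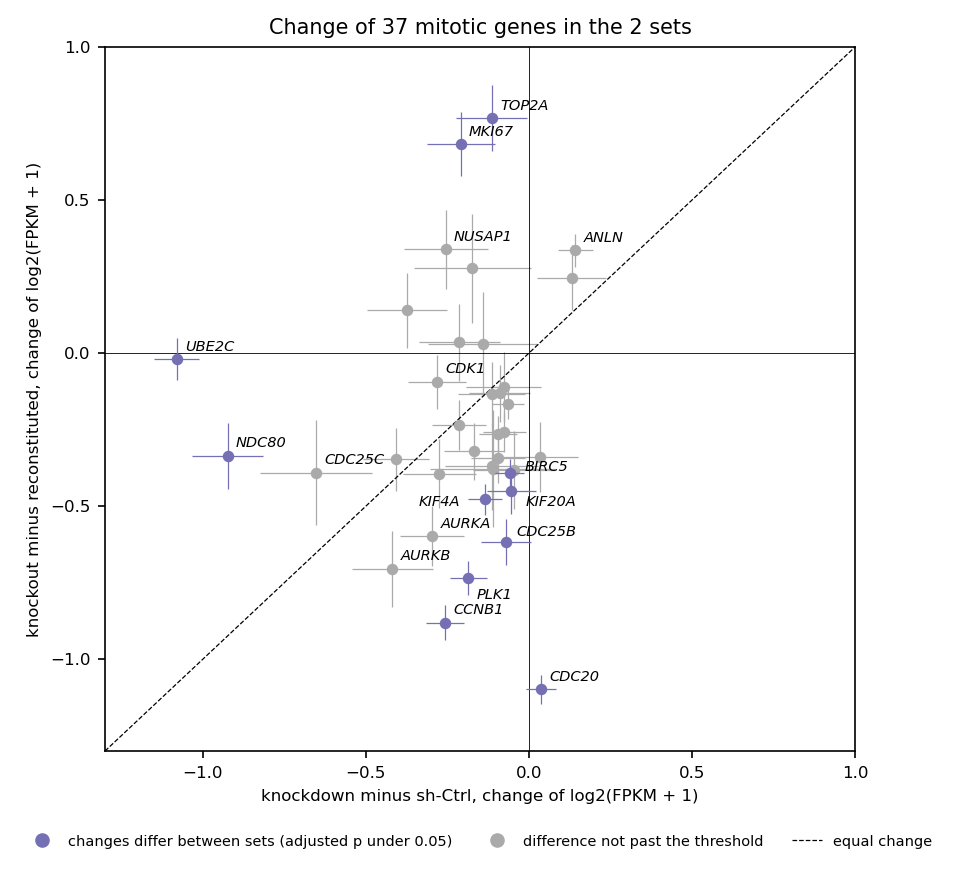
Change on the log2(FPKM + 1) scale in the shRNA set (x axis) and the CRISPR set (y axis) for 37 members, with CENPE left out for its listed 0; bars are standard errors of the limma fit. The 11 members whose changes differed between the sets are coloured: UBE2C and NDC80 lie far left, CDC20 lies far down and near 0 on the x axis, and TOP2A and MKI67 lie high.

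Ratios of FPKM within a library do not change when a library is scaled by 1 factor, though they can with quantile normalization. Of such ratios, 4 pairs were formed after the values were seen. The ratio of TOP2A to CCNB1 was 0.565 and 0.504 in sh-Ctrl, 0.567 and 0.612 in knockdown, 0.462 and 0.467 in reconstituted and 1.47 and 1.47 in knockout cells. The ratio of MKI67 to CDC20 was between 0.216 and 0.304 in the 6 other libraries and 0.970 and 0.913 in knockout cells. Both ratios were highest in the knockout libraries. Each was formed from a gene that rose in knockout cells over one that fell there, so this follows from the choice of pairs. The ratio of UBE2C to CDC20 was 1.97 and 1.78 in sh-Ctrl and 1.48 and 1.51 in reconstituted cells, but 0.841 and 0.874 in knockdown and 3.22 and 3.15 in knockout cells. The deficient conditions lay on opposite sides of the expressing ones. This too follows from the choice, UBE2C being called only in knockdown and CDC20 only in knockout cells. The ratio of NDC80 to its partner NUF2 was 0.713 and 0.845 in sh-Ctrl, 0.469 and 0.4296 in knockdown, 1.001 and 0.975 in reconstituted and 0.641 and 0.640 in knockout cells, lower in the deficient condition of each set. That again follows from the choice, NDC80 being called lower in both sets and NUF2 in neither in the main fit.

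**Figure D5:**
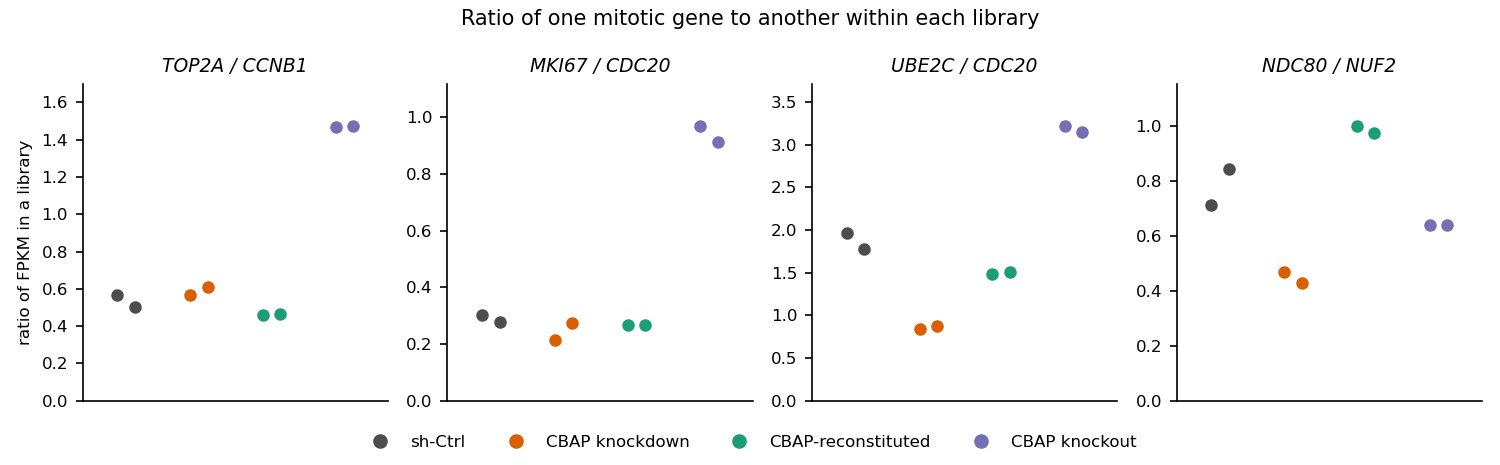
Ratio of the FPKM of one member to that of another in each of the 8 libraries, 1 point per library; the axes start at 0. The ratio of TOP2A to CCNB1 is 1.47 in both knockout libraries and at most 0.612 elsewhere, and the ratio of UBE2C to CDC20 is lowest in knockdown and highest in knockout cells.

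With the sets pooled as the study pooled its classes, 4 CBAP-deficient against 4 CBAP-expressing libraries, limma called 0 of the 38 members, 12 (31.6%) having an unadjusted p under 0.05, as 20.98% of all genes did, beside 0.210% of all genes called higher and 0.411% called lower. The smallest adjusted p was 0.080, for AURKA. With the set as a covariate, 8 members were lower (21.1%), beside 8.46% of all genes, and 0 higher, beside 3.82%. These were NDC80 (-0.63), CCNB1 (-0.57), AURKB (-0.56), CDC25C (-0.52), PLK1 (-0.46), AURKA (-0.45), CCNB2 (-0.38) and CENPA (-0.33), with adjusted p-values from 0.026 to 0.0499. This fit takes 1 change as common to both sets, whereas the changes of NDC80, CCNB1 and PLK1 differed between the sets. CDC25C passed in neither the knockdown nor the knockout comparison.

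Other mitotic genes, taken from lists of 118 genes by complex, and 46 DNA replication genes were read from the main fit. Of all tested genes 8.70% fell and 3.62% rose in knockdown cells, and 25.9% fell and 23.9% rose in knockout cells. Of 116 other mitotic genes with a row, 9 fell and 1 rose in knockdown cells and 30 fell and 17 rose in knockout cells (7.76%, 0.862%, 25.9% and 14.7%), and their median changes were -0.05 and -0.08. Among the smallest p-values in knockdown cells were those of TFDP1, the partner of E2F factors (-0.49), and ESPL1, separase (-0.34). In knockout cells they belonged to CENPW, a kinetochore subunit (-1.20), KPNA2, an importin (-0.66), and CCNF, cyclin F (-0.60). CENPW fell from 149.7 and 153 FPKM to 64.9 and 65.5, a change near that of CDC20 in size. Of 45 replication genes with a row, 10 fell and 0 rose in knockdown cells and 15 fell and 2 rose in knockout cells (22.2%, 0%, 33.3% and 4.44%), with median changes of -0.16 and -0.09. FEN1, a flap nuclease (-0.46), LIG1, the replicative ligase (-0.52), and TYMS, thymidylate synthase (-0.31), led in knockdown cells, and MCM2, a helicase subunit (-0.56), RFC2, a clamp loader subunit (-0.40), and LIG1 (-0.36) in knockout cells.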

How the data were processed

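Total RNA of 8 Jurkat libraries was sequenced as paired ends. FPKM, which the authors estimated with cuffdiff after TopHat alignment (hg19), were deposited, and the submitters' processing notes also name CASAVA 1.8. The cuffdiff scaling, the annotation and strand use are not given in the sources used here. The deposited FPKM hold no counts, so the depth is unknown and precision rests on 2 libraries per condition. Of the members, 9 overlap a protein-coding gene on the opposite strand and their values may include its reads. Groups came from the labels.

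From these values log2(FPKM + 1) was computed, a mean FPKM of at least 1 was required of a gene, and limma 3.58.1 (R 4.3.3; 1 mean per condition over all 8 libraries, empirical Bayes with trend) gave changes, standard errors and Benjamini-Hochberg adjusted p-values, called under 0.05. A change on this scale understates that of genes with low FPKM. The test was run on simulated data in which each gene had the same spread in all 4 conditions. The replicate spread here differed between the sets, so that run could not check the test for this. Python 3.11.15, pandas 2.3.3 and matplotlib 3.10.9 made tables and figures.

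The members and lists were chosen with earlier results of these data known. Full values were given for CDK1, CCNB1, PLK1, AURKA, AURKB, BUB1B, BIRC5, TOP2A and MKI67 (BUB1B as a joint value; FOXM1, also chosen, was not analysed here), for up to 5 members of largest change per direction and set and of largest difference among those past the threshold, and for members listed at 0. Of the other lists, the 3 genes of smallest p per set were named, except 1 that is not reported here. Alternatives covered the pseudocount, filter, scaling, trend, listed zeros, libraries left out, a replicate block, single sets and the set as covariate. Equal sums of FPKM and the single-set values of single genes were added after seeing the data. Gene coordinates are from GENCODE 44 lifted to GRCh37.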

Additional observations from a re-analysis of the deposited data

Results flagged for a closer look

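Of 28 groups of 4 libraries examined (14 members, CBAP-expressing and CBAP-deficient), 2 held a library whose gap to its nearest neighbour took most of the group's range, above Dixon's critical value for 4 values. Chance flags about 1 in 20 groups drawn from a single population, but each of these groups joined libraries of both sets, whose levels differed. For AURKA in the deficient libraries the share was 0.869, with knockdown replicate 2 (48.8 FPKM) above 40.9, 41.5 and 42.0. For TOP2A in the expressing libraries it was 0.983, with sh-Ctrl replicate 2 (64.7 FPKM) under 78.7, 78.9 and 79.0.

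The change differed between the sets, by the limma test of the difference (knockdown change minus knockout change, log2 scale), in 11 members. The difference was 1.13 for CDC20, 0.62 for CCNB1, 0.55 for PLK1, 0.55 for CDC25B, 0.40 for KIF20A, 0.34 for KIF4A and 0.33 for BIRC5, and -1.06 for UBE2C, -0.89 for MKI67, -0.88 for TOP2A and -0.59 for NDC80. CD5, further lineage markers and the summed FPKM also differed between the cells of the CRISPR set, and their part in these differences was not tested.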

How the results depend on the processing

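Each choice was varied alone, and the calls over all genes moved with it, also with 1 library left out. In knockout cells 2734 of all 11427 genes were called higher and 2963 lower in the main fit. With only the CRISPR set these were 3848 and 3901. In knockdown cells the main fit called 414 higher and 994 lower. Without genes listed at 0 these were 480 and 1255 of 10542. The count of members called in knockdown cells, 3, was 6 without genes listed at 0 in any library, 0 with only the shRNA set in the fit (where 58 of all genes were called higher and 17 lower) and 2 to 7 with 1 library left out, 7 without sh-Ctrl replicate 2 or knockdown replicate 2. The count in knockout cells, 20, was 32 with only the CRISPR set and 12 to 25 with 1 library left out, 12 without either reconstituted and 13 without either knockout library. The 11 differences between sets were 17 with median scaling and 6 to 14 with 1 library left out, 6 without either reconstituted library and 7 without knockout replicate 2. The 0 calls of the pooled comparison became 1 with median scaling (CCNB2) and 8 with the set as covariate, and stayed at 0 with any 1 library left out. The cause was not tested.

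The labels number the libraries 1 and 2 in every condition without saying that a number is shared. Deviations of same-numbered libraries correlated at 0.146 (shRNA set) and 0.024 (CRISPR set) over 11427 genes. With a replicate block, 2 members were called in knockdown, 16 in knockout and 9 in the difference (CCNB1 at adjusted p = 0.083 in knockdown cells).

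The median of all genes, -0.05 in the difference of the sets and 0.00 in knockout cells, was 0.08 and -0.09 with median scaling and -0.15 and 0.13 with equal sums of FPKM. Relative to all genes the members' median in knockout cells was -0.33, and -0.34 with median scaling, -0.31 with equal sums and -0.14 with quantile normalization. Under the settings other than leaving out a library, 7 of the 38 members turned direction in knockdown and 8 in knockout cells, BUB3 in knockout cells being the only one of them called. Among the members given with full values these were CDK1 (0.062 with equal sums, 0.14 with quantile normalization) and UBE2C (0.14 and 0.17) in knockout cells, and BIRC5 (0.038) and CDC25B (0.028) in knockdown cells with quantile normalization. With 1 library left out, the knockdown change of TOP2A ran from -0.25 to 0.025 and that of CDC25B from -0.18 to 0.034; for CENPE the knockout change ran from -4.18 to 0.10 and the difference from -0.40 to 3.89. Depth is unknown, so no limit from counts can be given.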

Other observations

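The other mitotic genes divided by complex as follows in CBAP knockout cells, where 23.9% of all tested genes rose and 25.9% fell. With 8 to 30 genes each, several shares lay near these, such as 23.1% rising among the cohesin genes and 23.3% falling among the kinetochore genes. Of 8 condensin genes 3 rose and 1 fell, and of 13 cohesin genes and regulators 3 rose and 1 fell. Of 17 genes of the anaphase-promoting complex, whose activator CDC20 fell, 1 rose and 3 fell. Of 30 further kinetochore genes 3 rose and 7 fell, of 26 further spindle and cytokinesis genes 1 rose and 9 fell, and of 10 regulators of mitotic entry 1 rose and 5 fell. Of 12 DREAM and MuvB factors, the complexes that read the CHR, 5 rose and 4 fell. In knockdown cells, where 3.62% of all genes rose and 8.70% fell, 5 of the 30 kinetochore genes fell and 0 rose, while limma called 0 of 8 condensin genes and 0 of 17 genes of the anaphase-promoting complex (2 and 3 at an unadjusted p under 0.05).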
